A study of Mus musculus with 9 samples.

Results

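The lincRNA exon probes of the array were the 3457 non-control probes whose names start with MM9LINCRNAEXON, among 59709 transcript probes in all. Each name carries a number and a strand suffix, and 1728 of these probes had the + suffix and 1729 the - suffix. The numbers ran from 10002 to 12127 with 1729 different numbers in use, of which 1728 had a probe on both strands. The members were chosen by name alone, and no measured value entered the choice.

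Long intergenic non-coding RNAs (lincRNAs) are transcripts that lie between protein-coding genes, are often spliced into several exons and polyadenylated, and are not translated into a known protein. Some act in the nucleus on chromatin or on transcription of nearby genes, and others work in the cytoplasm. In brain many of them are restricted to certain cell types or stages, so that a change over days in culture or after an injury is a common question. A probe to an exon on one strand reads RNA made from that strand, and RNA from the other strand is antisense to it. The suffix is taken here as the strand of the RNA. Whether it names the strand of the transcript or that of the probe was not known. If it is that of the probe, + and - change places throughout.

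The cells were primary cortical neurons from embryonic day 15 (E15) brains of Swiss albino mice, and the labels name no transgene or drug. One series followed maturation, with an array for each of Days 2, 4, 6 and 8 in culture. The other series used Day 6 neurons exposed to oxygen-glucose deprivation (OGD), a culture model of ischaemia in which medium without glucose is kept in a low-oxygen chamber, for 2, 4, 6 or 8 hr. These arrays were of neurons after 24 hr of reperfusion, and the 0 hr OGD control was handled alike without the deprivation. The reperfusion medium is described as free of the B27 supplement that the maturing cultures received. By the methods, each array pooled the RNA of 4 experiments, except that the 6 and 8 hr OGD arrays are not mentioned there. Each of the 9 conditions had 1 array, so no test was run, no p-value is given and the values describe these arrays. The error beside a difference is the scanner software's modelled error of the spots, which leaves out the variation between cultures. In bulk RNA, fewer cells of a kind and less RNA per cell cannot be told apart.

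The scanner read Days 2 and 4 together and the other 7 arrays together at another time, so in a difference between Day 2 and Day 6 or Day 8 the scan and the day cannot be told apart. The Day 4 array stood apart. On it 54.4% of the spots of the negative probes, which match no transcript, were called well above background, against 0.833% to 9.58% on the other arrays. The cell type was not checked here against marker genes, because most probes are named by design numbers. The paper itself checked it by immunostaining for markers of neurons, progenitors and glia and by qPCR of miRNAs. Probe sequences and genome positions of the members were not used here, so the number and the suffix are their only address.

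lincRNA exon probes were detected a little less often than transcript probes as a whole on every array. A probe counted as detected when the scanner software called its spot well above background. Of all members, 1396 (40.4%) were detected on Day 2, 2321 (67.1%) on Day 4 and 1227 (35.5%) on Day 6, while 1320 (38.2%) were detected on the Day 8 array. The OGD arrays detected 1578 members (45.6%) at 0 hr and 1455 (42.1%), 1576 (45.6%), 1114 (32.2%) and 1069 (30.9%) after 2, 4, 6 and 8 hr of OGD. The share of all transcript probes was higher than that of the members in each case and ran from 33.1% at 8 hr OGD to 71.6% on Day 4.

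**Figure D1:**
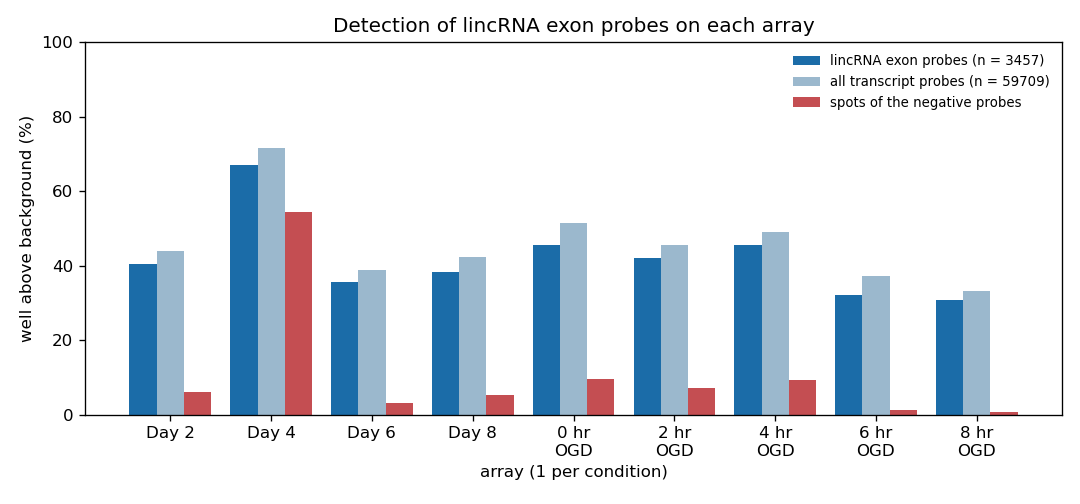
Share of probes called well above background (vertical axis, %) on each of the 9 arrays (horizontal axis), for the lincRNA exon probes, for all transcript probes and for the spots of the negative probes. The members lie below all transcript probes on each array, and the negative spots reach 54.4% on Day 4.

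About as many members were detected throughout as never. Of all members, 912 (26.4%) were detected on all 9 arrays, against 29.2% of transcript probes, and 913 (26.4%) on no array, against 22.3%. A further 709 members (20.5%) were detected on 1 array only, against 19.6% of transcript probes, and for 569 of these members that array was Day 4. The flag was therefore set against another measure, the 95th percentile of the negative spots on the same array. By that measure 830 members (24.0%) were above background on Day 4, fewer than on any other array, where the count ran from 1204 at 0 hr OGD to 1384 at 4 hr OGD. It passed more members than the flag did on Day 6 (1310), at 6 hr (1383) and at 8 hr OGD (1297), so neither measure was the stricter on every array. Hence the rank of Day 4 among the arrays depended on the measure of background. At least 1 maturation array detected 2394 members (69.3%, against 73.8% of transcript probes), 1588 of them without the help of Day 4 (45.9% against 50.2%). At least 1 OGD array detected 1857 (53.7% against 58.2%).

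To ask which lincRNA exons changed as neurons matured, the signal log ratio (SLR), the log2 signal of an array minus that of Day 2, was taken for each of the 2394 members detected in maturation. An SLR above 1 or below -1, a difference of 2-fold, counted as past the threshold, and the share of all detected transcript probes past it is given as the background. On Day 4, 499 members (20.8%) were above 1, where the background was 21.9%, and 479 were below -1, where it was 16.8%. Of the calls on Day 4, 51.0% were thus higher, and 64.8% with arrays scaled to their 75th percentile. The split also depended on which members were counted. Over the 1569 of these members that the authors' processed values hold, 24.9% of the calls were higher, and 25.1% in those values themselves. Over the 1100 members detected on all 4 maturation arrays 19.2% were higher, and under the scalings tried the share was between 12.6% and 44.9%, so there the lower calls were the more numerous in each. On Day 6, 232 members (9.69%) were above 1 against a background of 10.6%, and 318 (13.3%) were below -1 against 13.2%. On Day 8, 232 members (9.69%) were above 1 against 11.2%, and 355 (14.8%) were below -1 against 13.9%. The higher share on Day 8 was 39.5%, and 28.1% with 75th percentile scaling. The members thus passed the threshold about as often as other probes.

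A stricter set of 1100 members detected on all 4 maturation arrays gave fewer calls. On Day 4, 71 of them (6.45%) were above 1 against a background of 7.09%, and 299 (27.2%) were below -1 against 21.4%. On Day 6, 49 (4.45%) were above 1 against 5.80%, and 57 (5.18%) were below -1 against 4.00%. On Day 8, 40 (3.64%) were above 1 against 5.28%, and 61 (5.55%) were below -1 against 4.63%. In this set 46.2% of the members' calls on Day 6 and 39.6% on Day 8 were higher, against 59.2% and 53.3% for transcript probes. With 75th percentile scaling these shares were 70.5% and 53.2% for members and 79.8% and 66.1% for transcript probes, so the direction of the members' calls turned with the scaling. The members' share stayed below that of transcript probes in each scaling tried.

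Only a few members were past the threshold on both Day 6 and Day 8 in the same direction. Among the 1100 members, 13 were above 1 on both days (1.18%, background 2.81%) and 32 were below -1 on both (2.91%, background 2.49%). Day 8 differed from Day 6 by more than 1 in none of the 13 and in 1 of the 32. None of the 13 was past the threshold on Day 4 in either direction, whereas of the 32 that ended lower, 14 were first above 1 on Day 4 and 12 were already below -1.

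The 6 members with the highest mean SLR on Days 6 and 8 had Day 4 SLRs between -0.18 and 0.62 and were higher from Day 6 on. MM9LINCRNAEXON11442+ had log2 signals of 5.12, 5.73, 7.11 and 7.68 on Days 2, 4, 6 and 8. Its SLR was 1.99 ± 0.26 on Day 6 and 2.56 ± 0.26 on Day 8, the latter a 5.90-fold difference. The OGD arrays, at 7.82, 6.59, 7.26, 7.19 and 6.55 from 0 to 8 hr, all stayed above its Day 2 and Day 4 values.

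MM9LINCRNAEXON11056- went from 7.55 on Day 2 and 7.81 on Day 4 to 9.90 on Day 6 and 9.39 on Day 8. This is an SLR of 2.35 ± 0.21 and 1.84 ± 0.21, and the 5 OGD arrays held it between 8.87 and 10.20. MM9LINCRNAEXON10415- was at 4.71, 4.76, 6.65 and 6.09 over the 4 days, with SLRs of 1.94 ± 0.29 and 1.38 ± 0.30 on Days 6 and 8. For these members, too, every Day 6, Day 8 and OGD value was above the values of Days 2 and 4. MM9LINCRNAEXON11119- was at 5.30, 5.12, 6.95 and 6.46 on the 4 days. On Day 4 the scanner signals before normalization of this member (78.2) and of MM9LINCRNAEXON10415- (65) were below the 95th percentile of the negative spots (95.82). Their Day 4 values are thus not set apart from background. MM9LINCRNAEXON10387- was the brightest signal of the 6, at 10.07, 10.68, 11.57 and 11.29, and reached 12.43 at 8 hr OGD. The last, MM9LINCRNAEXON10088+, was at 7.71, 7.55, 8.74 and 9.18 over the days and between 9.04 and 9.72 in the OGD series. In all 6 the Day 6 and Day 8 values lay above those of Days 2 and 4, with no overlap. For Day 2 this follows from their choice by an SLR above 1 on both days. That choice also favours OGD values above Day 2, and the OGD arrays share the scan of Days 6 and 8, so nothing is read from those values. Of the 13 members above 1 on both days, 7 were also above 1 at 0 hr OGD against Day 2.

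Among the 6 members with the lowest mean SLR on Days 6 and 8, the day on which the signal left its Day 2 level differed. MM9LINCRNAEXON11613+ was at 8.59, 2.55, 4.90 and 5.76 over the 4 days. Its SLR was -3.68 ± 0.30 on Day 6 and -2.82 ± 0.23 on Day 8, and on Day 4 its signal lay among the dim signals of an array on which 54.4% of negative spots were also called detected. MM9LINCRNAEXON10692- was at 7.05 on Day 2 and at 3.28, 4.81 and 4.72 on the later days. Both were lower than on Day 2 on every other array, and in the OGD series each was not detected on some arrays, 3 and 2 of the 5.

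Other members of this group were still high on Day 4. MM9LINCRNAEXON10264- was at 8.20 on Day 2 and 9.85 on Day 4, then at 5.46 on Day 6 and 4.58 on Day 8, SLRs of -2.74 ± 0.26 and -3.62 ± 0.32. MM9LINCRNAEXON10070+ was at 7.76 and 9.72 on the first 2 arrays and at 5.43 and 4.78 on the next 2, with SLRs of -2.33 ± 0.27 and -2.98 ± 0.29. MM9LINCRNAEXON10231- was at 7.03, 8.27, 4.67 and 4.62, which is 5.16-fold lower on Day 6 and 5.32-fold lower on Day 8 than on Day 2. All 3 were highest on Day 4, and their OGD signals, at most 5.66, all lay below the Day 2 values. As for the higher members, the choice by a difference from Day 2 favours such OGD values, and nothing is read from them. MM9LINCRNAEXON10661- was at 7.33, 7.88, 4.95 and 4.44 on the 4 days.

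**Figure D2:**
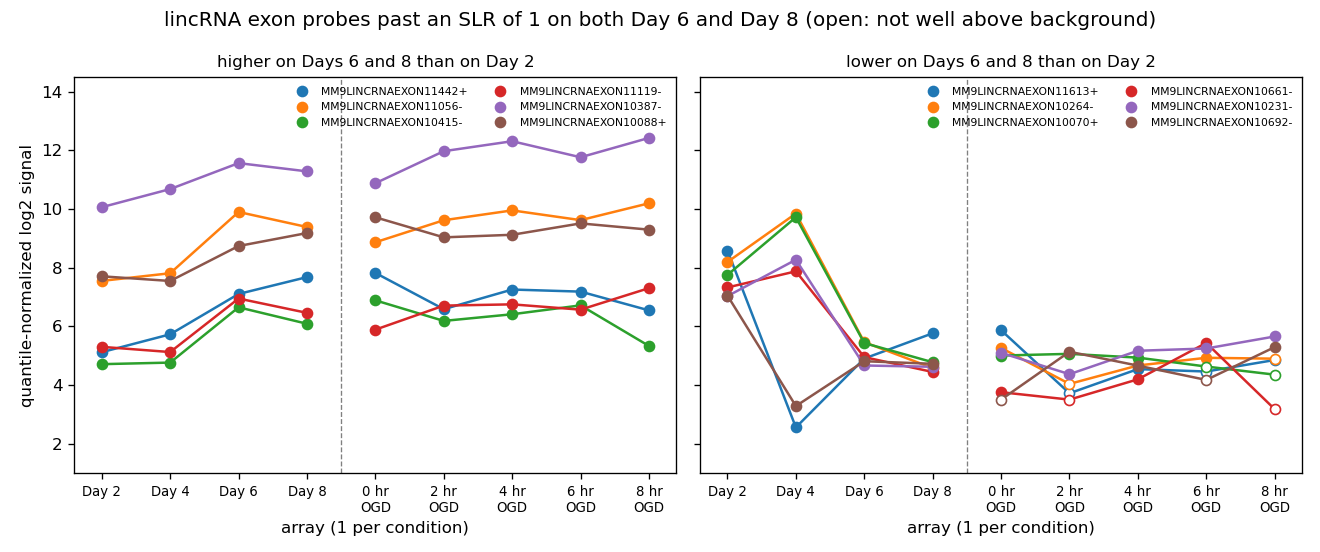
Quantile-normalized log2 signal (vertical axis) on the 9 arrays (horizontal axis) for the 6 members with the highest (left) and the lowest (right) mean SLR of Days 6 and 8; each line is 1 probe and open points were not well above background. On the left every value from Day 6 on lies above Days 2 and 4, and on the right 4 of 6 probes were highest on Day 4 and 2 were low from Day 4 on.

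Some members crossed the detection limit during maturation. Of the 2061 members not detected on Day 2, 58 (2.81%) were detected on both Day 6 and Day 8, where the background was 3.95% of transcript probes. In the other direction, 201 of the 1396 members detected on Day 2 (14.4%, background 13.8%) were detected on neither Day 6 nor Day 8, and 86 of these were not detected on any OGD array. A fold for such a member is a lower bound, set against the dimmer array's own signal or its lowest signal among detected probes, whichever was higher.

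Of the members gained, MM9LINCRNAEXON11750+ was at 4.12, 4.96, 6.52 and 6.54 over the 4 days, at least 5.26-fold and 5.33-fold higher, and at 6.94 to 7.39 after OGD. MM9LINCRNAEXON12110- was at 7.33 on Day 6 but at 4.37 on Day 8, which puts it above Day 2 by at least 9.21-fold and then by at least 1.18-fold. Its gain was thus mostly that of the Day 6 array. MM9LINCRNAEXON11355- was at least 2.52-fold higher on Day 6 and 3.85-fold on Day 8, and MM9LINCRNAEXON11112- 2.88-fold and 2.70-fold.

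Among those lost, MM9LINCRNAEXON10897- was at 9.51 on Day 2 and at 1.81, 3.32 and 1.96 on Days 4, 6 and 8. It was at least 31.5-fold lower on Day 6 and 36.0-fold lower on Day 8, and of the OGD arrays only 6 hr detected it, at 4.91. MM9LINCRNAEXON10380- was at 7.89 on Day 2, at least 10.3-fold lower on Day 6, and detected again at 0 hr OGD only, at 3.86. MM9LINCRNAEXON12027- was detected on the Day 2 array alone and was at least 5.57-fold lower on Day 6. A value found on 1 array of 9 has no second array behind it. MM9LINCRNAEXON10263- differed in that Day 2 and Day 4 both held it high, at 7.97 and 8.00, before 3.94 on Day 6 and 3.25 on Day 8, at least 10.9-fold and 12.4-fold lower.

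That member lay in a stretch of the - strand where falls were dense. Windows of 20 numbers were moved along each strand, and in each the members detected on Day 2 and below -1 on both Day 6 and Day 8 were counted. Of 4214 windows, 20 held 6 or more, all on the - strand and overlapping one another, and no window clear of them held more than 4. The stretch ran from number 10240 to 10265 and was chosen after its values had been seen, so its lower signal on Days 6 and 8 is what chose it. It holds 24 members on each strand.

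On the - strand of this stretch, 11 of the 18 members detected on Day 2 (61.1%) were below -1 on both Day 6 and Day 8, against 75 of 684 at all other - numbers. The median log2 signal of the 24 members was 5.84, 7.35, 4.71 and 4.44 over the 4 days. The Day 4 signal did not enter the choice. Its SLR was above 1 for 17 of the 24 (70.8%), against 244 of 1155 (21.1%) at the other - numbers, with medians of 1.53 (0.65 to 1.53 over the scalings) and -0.20. With 75th percentile scaling 13 of the 24 were above 1 on Day 4, and with normexp 7. Below -1 were 12 on Day 6 and 11 on Day 8, but 5 on each day with normexp. In maturation 6 of the 24 were detected on Day 4 alone. Over the 18 detected on Day 2, 13 were above 1 (72.2%) with a median SLR of 1.44, against 75 of 684 and a median of -0.60 at the other - numbers. The OGD arrays had medians of 4.11 to 4.74. The stretch was chosen for Day 2 lying above Days 6 and 8, which favours a Day 2 signal above the OGD arrays too, so nothing is read from that difference. Days 6 and 8 and the OGD arrays also share a scan that Days 2 and 4 do not, and the scan and the day cannot be told apart.

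The + probes of the same numbers moved less. The stretch was chosen by falls of its - members, which favours this, and favours fewer - members detected throughout. Their median log2 signal was 7.78, 8.33, 7.25 and 7.20 on those days, and 2 of the 20 detected on Day 2 were below -1 on both late days, against 70 of 674 (10.4%) at all other + numbers. Detection on all 9 arrays was found for 18 of the 24 + members against 25.9% of + members elsewhere, and for 8 of the 24 - members (33.3%) against 26.0%. Both probes of a number were detected throughout for 7 of the 24 numbers (29.2%), against 6.98% of all other numbers. In this stretch, then, most + members were detected on every array and most - members were not.

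Single members showed the contrast of the strands. MM9LINCRNAEXON10254- was at 6.68 and 9.06 on Days 2 and 4, and was not detected on Days 6 and 8, at 3.52 and 3.75. It was detected again at 0 hr (4.61) and 4 hr OGD (3.98). On the same arrays MM9LINCRNAEXON10254+ was at 12.90, 13.12, 12.82 and 12.88. The - probe was below background on the late days while the + probe stayed between 12.57 and 13.16 on all 9 arrays. MM9LINCRNAEXON10265- went from 7.66 and 9.61 on Days 2 and 4 to 5.63 and 5.50 on Days 6 and 8, and was at 5.16 to 6.02 in the OGD series. MM9LINCRNAEXON10265+ lay between 10.69 and 11.76 on the 9 arrays. MM9LINCRNAEXON10260- had the largest Day 4 SLR of the stretch, 3.29, from 4.70 to 8.00, and was not detected on any later array.

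Not every member took part. MM9LINCRNAEXON10252- stayed between 5.34 and 6.47 on all 9 arrays, and MM9LINCRNAEXON10258- was lower on Day 4, at 5.53, than on Day 2 or Day 8, at 7.25 and 7.58. On the + strand MM9LINCRNAEXON10263+ was an exception with the course of the - members, at 5.77, 8.58, 2.81 and 3.53 over the 4 days. Under 75th percentile scaling the median SLR of the + members on Day 4 changed from 0.36 to -0.14, while that of the - members stayed above 1, at 1.22.

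**Figure D3:**
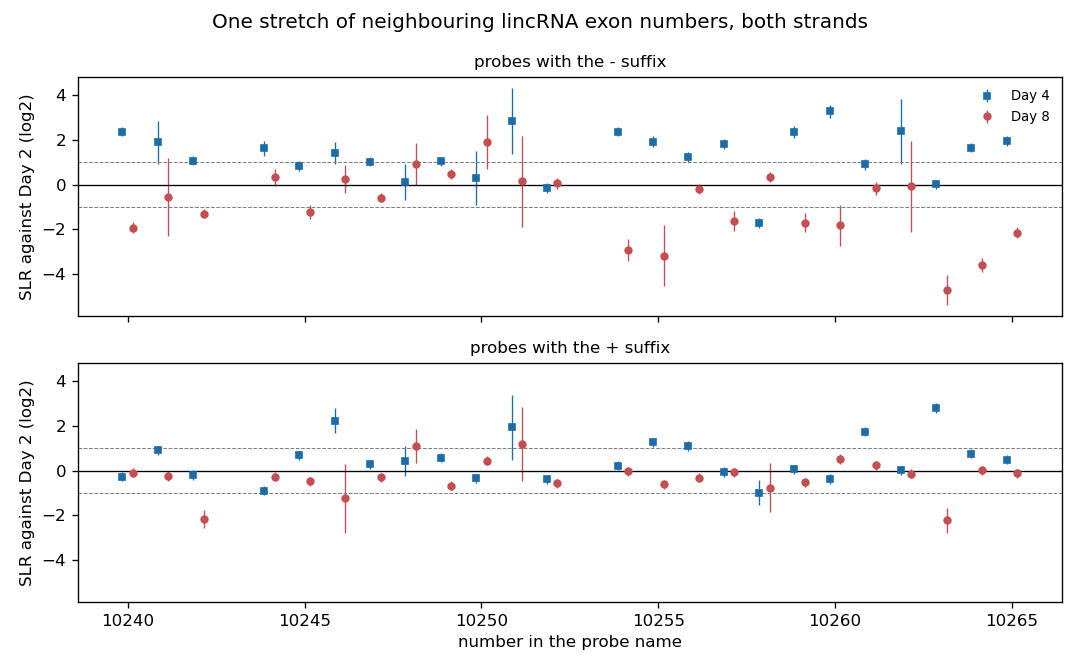
SLR against Day 2 (vertical axis, log2) on Day 4 (squares) and Day 8 (circles) for each member between numbers 10240 and 10265 (horizontal axis), with the - probes above and the + probes below; bars are the modelled error of the spots and dashed lines mark 1 and -1. On the - strand most Day 4 values lie above 1 and 11 of 24 Day 8 values below -1, and on the + strand most values lie between the dashed lines.

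To ask which lincRNA exons responded to ischaemia, the SLR of each OGD time against 0 hr OGD was taken for the 1857 members detected in the OGD series. At 2 hr OGD, 347 members (18.7%) were above 1 where the background was 14.6%, and 281 (15.1%) were below -1 where it was 15.4%. After 4 hr there were 323 (17.4%) above 1 against 12.4%, and 242 (13.0%) below -1 against 13.0%. At 6 hr, 127 (6.84%) were above 1 against 5.39%, and 266 (14.3%) were below -1 against 11.3%. At 8 hr, 375 (20.2%) were above 1 against 14.9%, and 304 (16.4%) were below -1 against 18.8%. At all 4 times a larger share of members than of transcript probes was above 1, also in each scaling tried except normexp background correction at 6 hr (0.70% against 0.706%). With Day 6 or Day 8 as the reference, over probes detected on either array of the comparison, this held at 2, 4 and 8 hr but not at 6 hr. There 5.38% of members against 6.39% of transcript probes were above 1 with Day 6, and 5.20% against 5.41% with Day 8. With 0 hr OGD as the reference the 6 hr array had the fewest calls of the 4, 393. With Day 6 over the same 1857 members the 2 hr array had the fewest, 280 against 290 at 6 hr.

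The 936 members detected on all 5 OGD arrays gave fewer calls. At 2 hr, 154 (16.5%) were above 1 against a background of 12.3%, and 86 (9.19%) were below -1 against 8.26%. At 4 hr, 121 (12.9%) were above 1 against 8.91%, and 71 (7.59%) were below -1 against 6.14%. At 6 hr, 32 (3.42%) were above 1 against 2.54%, and 66 (7.05%) were below -1 against 4.18%. At 8 hr, 203 (21.7%) were above 1 against 15.9%, and 68 (7.26%) were below -1 against 10.5%. The share above 1 was larger for members than for transcript probes at each time and in each scaling tried. Over the 912 members detected on all 9 arrays and with Day 6 as the reference it was smaller at 6 hr (2.41% against 2.63%). Which direction held more of the members' calls did depend on it: 64.2% were higher at 2 hr, but 45.8% with 75th percentile scaling and 42.3% with normexp, and 63.0% at 4 hr but 43.9% with 75th percentile scaling. At 6 hr 32.7% were higher, and 50.7% with that scaling, and at 8 hr 74.9% and 55.0%. The median SLR of these members was 0.36, 0.30, 0.06 and 0.45 in the order of the times, whereas that of all transcript probes so detected was between 0.01 and 0.08. These medians depended on the reference: over the 912 members they were 0.35, 0.29, 0.06 and 0.44 against 0 hr OGD, but 0.15, 0.14, -0.11 and 0.28 with Day 6 as the reference, and 0.26, 0.23, -0.01 and 0.34 with Day 8.

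The higher calls came more from + members than from - members. Of the 929 + members detected in the OGD series, 198 were above 1 and 101 below -1 at 2 hr, so 66.2% of those past the threshold were higher. For the 928 - members the counts were 149 and 180, with 45.3% higher. After 4 hr the split was 69.3% against 45.7%, after 6 hr 36.9% against 27.4%, and after 8 hr 67.0% against 44.7%. The + share was the larger in each scaling tried, at 8 hr with normexp by the least (73.5% against 71.2%). Among members detected on all 5 OGD arrays the - members were more often higher than lower at 2 hr (67 and 51, 56.8% higher), 4 hr (56 and 48, 53.8%) and 8 hr (98 and 41, 70.5%), and at 6 hr 24.5% were higher. The + share there was 71.3%, 73.9%, 40.8% and 79.5%. So the direction of the - calls depended on the filter, and normexp put the + share just below the - share at 8 hr in this set.

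At 2, 4 and 8 hr the difference between the suffixes was also there with another reference array. With Day 6 in its place the higher share was 67.6% for + and 47.2% for - members after 2 hr, 67.4% and 47.1% after 4 hr, 57.3% and 40.1% after 8 hr. With Day 8 it was 67.1% and 42.6%, 68.0% and 46.9%, and 64.6% and 41.0%, in the same order of times. At 6 hr the order turned with Day 6 as reference, 37.3% against 47.3%, and was level with Day 8, 37.5% against 37.3%. In the maturation series the split went the other way on Days 6 and 8, where 39.3% and 35.3% of the + calls were higher against 44.9% and 43.2% of the - calls, but with normexp 31.8% and 46.2% against 29.4% and 34.3%.

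**Figure D4:**
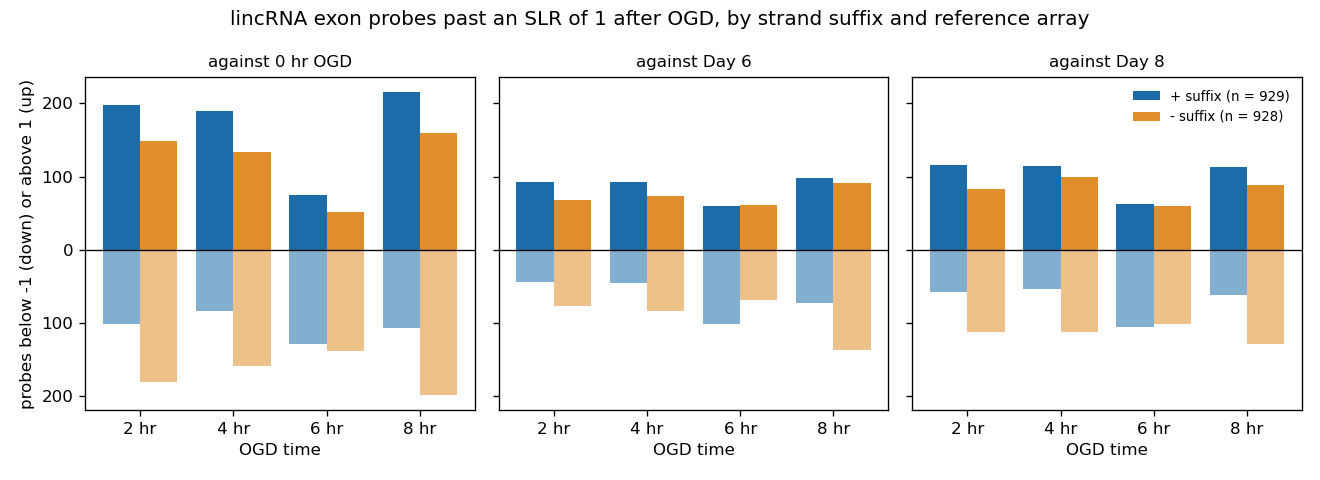
Number of members above an SLR of 1 (bars up) and below -1 (pale bars down) at each OGD time (horizontal axis), by strand suffix, with 0 hr OGD, Day 6 or Day 8 as the reference array. At 2, 4 and 8 hr the + members have more bars up than down with each reference, and the - members have more down than up.

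Changes in the same direction at 3 or more of the 4 OGD times were found for 58 members above 1 (6.20% of 936, background 4.14%) and 53 below -1 (5.66%, background 3.81%). All 4 times were above 1 for 8 members (0.855%, background 0.474%) and below -1 for 17 (1.82%, background 1.36%). Of the 8 members above 1 at all 4 times, 7 carried the + suffix.

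The 6 highest included members whose signal peaked at 6 hr OGD, the time with the fewest higher calls. MM9LINCRNAEXON11995+ was at 7.25 without OGD, and at 8.34, 9.13 and 8.88 after 2, 4 and 8 hr. At 6 hr its SLR was 3.76 ± 0.21, the highest of its times, and its maturation arrays held it between 6.86 and 8.62. MM9LINCRNAEXON10995+ was at 3.84, 5.58, 5.29, 7.92 and 5.86 from 0 to 8 hr, with an SLR of 4.08 ± 0.33 at 6 hr, and at 4.26 to 4.80 in maturation. For these members the 6 hr array was the highest of all 9 by more than 1. MM9LINCRNAEXON11908+ was at 5.80, 7.71, 7.44, 8.51 and 6.67 over the OGD times, with an SLR of 2.71 ± 0.21 at 6 hr and 0.87 ± 0.23 at 8 hr.

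MM9LINCRNAEXON10765+ was above every array without OGD at each time. It was at 8.41 at 0 hr and at 9.64, 10.20, 10.04 and 9.48 from 2 to 8 hr, while Days 2 to 8 lay between 8.13 and 8.68. The SLRs of 1.23, 1.79, 1.63 and 1.06 carried errors of 0.20. MM9LINCRNAEXON11401- and MM9LINCRNAEXON11603- depended on the reference. MM9LINCRNAEXON11401- was at 3.93 at 0 hr and at 5.01 to 5.90 after OGD, but Day 6 was already at 5.26. Likewise MM9LINCRNAEXON11603- was at 3.77 at 0 hr and 4.75 to 6.00 after OGD, with Day 6 at 4.90.

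In each of the 6 lowest members 0 hr OGD was the highest of the 9 arrays, which their choice by the difference from 0 hr OGD favours. MM9LINCRNAEXON10893+ was at 8.75 at 0 hr and at 6.15, 6.63, 6.83 and 6.56 from 2 to 8 hr, SLRs of -2.60 ± 0.22 to -1.92 ± 0.21. Day 8 was at 8.15 and Day 6 at 7.16, so the 4 hr array lay 1.52 below Day 8 but 0.53 below Day 6. MM9LINCRNAEXON12092+ was at 9.11 at 0 hr and 7.04, 6.81, 6.95 and 7.11 thereafter, with Day 6 at 7.71. In both members each array after OGD lay below every array without OGD apart from Day 4. MM9LINCRNAEXON11587- was at 8.82 at 0 hr and between 6.63 and 7.10 after OGD, and MM9LINCRNAEXON11266+ at 11.67 and between 9.60 and 10.21. MM9LINCRNAEXON10990- was at 8.65 at 0 hr and at 5.77, 6.72, 6.98 and 7.42 from 2 to 8 hr OGD. MM9LINCRNAEXON10605- was at 8.23, 6.00, 6.46, 6.09 and 7.20.

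**Figure D5:**
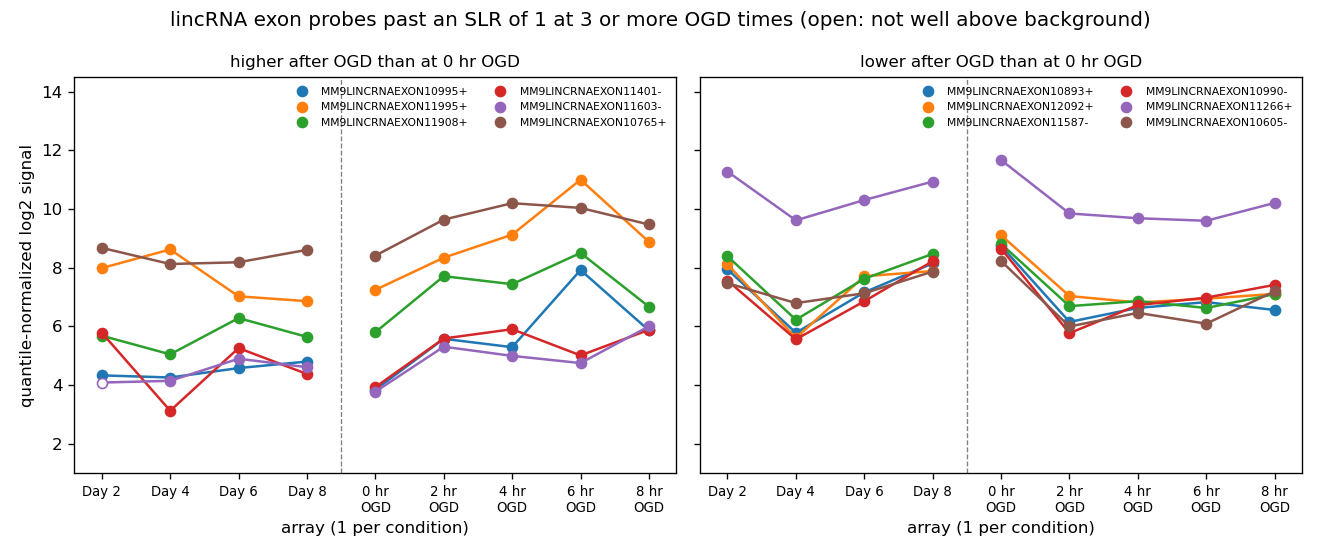
Quantile-normalized log2 signal (vertical axis) on the 9 arrays (horizontal axis) for the 6 members with the highest (left) and lowest (right) mean SLR after OGD; each line is 1 probe and open points were not well above background. On the left 3 probes peak at 6 hr OGD, and on the right 0 hr OGD is the highest array of each probe.

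Since each OGD call uses the single 0 hr array, that array was set against the other arrays made without OGD. Over the 912 members detected on all 9 arrays, 0 hr OGD differed from Day 6 by more than 1 in 123 (13.5%, background 8.64%) and from Day 8 in 21 (2.30%, background 2.00%). Day 8 differed from Day 6 in 46 (5.04%, background 2.68%). With Day 6 as reference, 7 of the 58 higher members were still above 1 at 3 or more times, and 0 of the 53 lower members were below -1. With Day 8 the counts were 6 and 20. The 58 and 53 members were chosen with 0 hr OGD as the reference, which favours lower counts with any other.

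Detection of one strand said little about the other. Of the 1728 numbers with both probes, 218 had both detected on Day 6, 396 the + probe alone, 395 the - probe alone and 719 neither. The - probe was detected in 35.5% of the numbers whose + probe was detected and in 35.5% of those whose + probe was not. On Day 2 the same shares were 46.0% and 37.0%, on Day 4 69.6% and 57.0%, and among the other 6 arrays they lay farthest apart at 4 hr OGD, at 42.8% and 45.6%. Over all 9 arrays, 126 numbers had both strands detected throughout, 98 the + strand throughout and the - strand never, and 111 the reverse. For 604 numbers 1 strand was detected on some array and the other on none, and for 660 exactly 1 strand was detected on all 9 arrays.

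The SLRs of the strands of a number went together weakly or not at all. Among the 184 numbers with both probes detected on all maturation arrays, 17 had both past the threshold in the same direction on Day 4, 4 in opposite directions and 79 on 1 strand only. On Day 6, 2 had both past in the same direction and 47 had 1 strand past it. In the OGD series, 131 numbers qualified, and at 8 hr 6 had both past in the same direction, 2 in opposite directions and 55 on 1 strand only, while at 6 hr the counts were 0, 2 and 25. Across these numbers the SLRs of the strands had a Pearson r of 0.10 on Day 6, -0.05 on Day 8, 0.06 at 2 hr and 0.17 at 8 hr OGD. The highest was 0.28, on Day 4, and the lowest -0.19, at 6 hr OGD. Numbers that lie close together may not be independent, and no p is given.

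The brightest signals belonged mostly to + probes. A mean log2 signal above 8 was reached by 142 + and 136 - members, one above 12 by 52 and 22, one above 14 by 22 and 4, and one above 16 by 9 and 0. The signal of a probe also depends on its sequence, so these values do not rank the RNAs. Of the 26 members above 14, 2 passed an SLR of 1 in maturation and 2 in the OGD series, and the median of their range over the 9 arrays was 0.56. Of the 297 transcript probes above 14, 46 (15.5%) passed it in maturation and 63 (21.2%) in the OGD series, and their median range was 0.89. The 5 brightest each stayed within a range of 1 log2 unit on the 9 arrays. MM9LINCRNAEXON10074+ stayed between 16.41 and 17.14 and MM9LINCRNAEXON10659+ between 16.57 and 17.01. MM9LINCRNAEXON11367+ ran from 16.41 to 16.91, MM9LINCRNAEXON10664+ from 16.13 to 16.58, and MM9LINCRNAEXON10703+ from 15.64 to 16.62. No member was saturated on any array.

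Bright pairs differed in whether the partner strand was read. MM9LINCRNAEXON11220+ was at 16.03 to 16.36 on the 9 arrays, and its - partner was detected on none. MM9LINCRNAEXON10210+ at 15.83 to 16.35 and MM9LINCRNAEXON11545+ at 14.75 to 15.25 were alike in this. In the pair of number 11231 it was the - probe that was bright, at 15.68 to 16.01, with the + probe detected on no array. These pairs showed that a signal of this size need not come with a signal of the other strand.

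In the 126 pairs with both strands detected throughout, the range over the 9 arrays differed between the strands by a median of 0.71, and by over 1 in 45 pairs (35.7%). The + range was the larger in 57 pairs. The 4 pairs described next were chosen for their brightness. MM9LINCRNAEXON10763- stayed between 15.63 and 16.04 while MM9LINCRNAEXON10763+ went from 13.10 on Day 2 to 11.70 on Day 8 and was lowest at 0 hr OGD, with a range of 2.10. MM9LINCRNAEXON11367- ranged from 7.56 at 0 hr OGD to 9.55 on Day 4, and MM9LINCRNAEXON10703- from 7.14 to 8.95 on the same arrays, while their + partners kept to ranges of 0.50 and 0.98. In these 3 pairs the strand that moved more was lowest at 0 hr OGD. In the pair of number 10151 the + probe moved more, from 15.47 at 0 hr OGD to 13.83 at 8 hr OGD, and the - probe stayed between 7.27 and 8.09.

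With all 9 arrays, members with neighbouring numbers were slightly more alike than distant ones, and without the Day 4 array they were not. For 234 pairs on the same strand whose numbers differed by 1, both detected on all 9 arrays, the median Pearson r of their log2 signals across the 9 arrays was 0.33. It was 0.21 at a distance of 2 (214 pairs), 0.25 at 3 to 5 (627 pairs), 0.25 at 6 to 20 (3056 pairs) and 0.21 at 21 to 100 (15391 pairs). For numbers 1 apart on opposite strands it was 0.24, and the 2 strands of 1 number also gave 0.24. Without the Day 4 array the value for same-strand neighbours was 0.11, and at the 4 larger distances it was 0.09, 0.13, 0.11 and 0.09. All pairs share the same 9 arrays, so the level of these values is not a measure of shared transcription.

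A member detected on all 9 arrays had a next number on its strand so detected in 29.4% of cases, against 26.4% of members overall and 26.1% for the next number on the other strand. Of the members below -1 on both Day 6 and Day 8, 9 of 64 next numbers on the same strand did likewise (14.1%), where 11.3% of members detected on Day 2 did. Above 1 at 2 hr OGD the same share was 32.0% against 22.1%, and at 4 hr 18.9% against 19.9%. After 6 hr it was 15.4% (4 of 26) against 7.27%, and after 8 hr 32.4% against 24.8%. These shares are of members detected at the time itself, and on Day 4 the same share was 22.2% against 21.5%. For members below -1, of those detected at 0 hr, it was 16.2% against 17.5% after 2 hr, and 22.2% against 15.1% after 4 hr. The later times gave 16.3% against 15.0% and 19.5% against 18.1%. Farther numbers on the same strand at times did as much or more: detection on all 9 arrays was shared in 30.3% of cases at a distance of 20, falls on both days in 22.4% at a distance of 5, and an SLR above 1 at 6 hr in 22.7% at a distance of 10. Below -1 at 8 hr the share was 26.8% at a distance of 2.

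Runs of 3 or more consecutive numbers with every member detected on all 9 arrays numbered 41, of which 2 had 5 members and 11 had 4. In the + run from 10571 to 10575 the members did not move as one. MM9LINCRNAEXON10574+ was at 9.87, 8.53, 8.45 and 10.88 on Days 2 to 8, and MM9LINCRNAEXON10573+ at 4.40, 3.83, 4.90 and 4.90. From Day 6 to Day 8 the log2 signal of MM9LINCRNAEXON10574+ thus moved and that of MM9LINCRNAEXON10573+ was 4.90 on both. In the - run from 10685 to 10689, MM9LINCRNAEXON10687- (12.77 and 12.42) and MM9LINCRNAEXON10686- (5.27 and 5.47) were both lower on Days 2 and 4 than on Days 6 and 8 (13.32 and 13.24, 6.33 and 6.02), while MM9LINCRNAEXON10689- was highest at 0 hr OGD, at 7.37. In the - run from 10154 to 10157, the lowest-numbered of the 11 runs of 4, MM9LINCRNAEXON10154- was highest at 0 hr OGD, at 7.04, and MM9LINCRNAEXON10156- highest on Day 6, at 6.26. Within these 3 runs some members thus went alike and others did not.

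The study listed 5 members among its clusters of changed lncRNAs, so they were chosen on these arrays and are given as values. MM9LINCRNAEXON11613+ and MM9LINCRNAEXON10254- are described above. MM9LINCRNAEXON10225- was at 6.35, 8.89, 1.81 and 3.58 on the 4 days, and of the last 5 arrays only 0 hr OGD detected it, at 4.05. MM9LINCRNAEXON10523+ was at 6.75, 8.08, 1.82 and 3.78 over the days, and was detected again at 8 hr OGD, at 6.09. MM9LINCRNAEXON10527+ was below background on Day 2, at 2.68, and was at 5.62 on Day 4 and 4.74 on Day 8. Of the 5, 4 were lower on Days 6 and 8 than on Day 2.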

How the data were processed

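For each of 9 single-colour arrays the authors deposited the scanner intensity of each spot, as Feature Extraction 11.0.1.1 gives it per the file headers, with its modelled error, and flags of other kinds (well above background, saturated, outlier). They also deposited processed intensity values for 29929 probes, 1579 of them members. The methods describe rRNA removal, random priming along the transcript and quantile normalization.

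Here outlier spots were left out (3 member spots, Day 8), log2 intensity was quantile normalized over the 9 arrays, and SLR was the difference from Day 2 or 0 hr OGD. Detection left outlier spots out too. Each member has 1 spot. With 1 array a condition no test was run, and precision is limited by that. The normalization and the SLR calls were tested on simulated arrays of probes detected on all 9 arrays. That simulation held no dim probes, no raised background and no detection flag, so it does not cover those. Python 3.11.15, numpy 2.4.6, pandas 2.3.3, matplotlib 3.10.9, R 4.3.3 and limma 3.58.1 were used.

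The members and lists were chosen with earlier results of these data known. Named members were the study's 5; the 6 highest and 6 lowest by mean SLR on Days 6 and 8 (both past 1) and after OGD (3 or more times past 1), detected on all arrays of the series; the 5 brightest; the 4 largest bounds for gain and loss; 4 bright pairs of each kind; and the 3 longest runs, the lowest number first among equals. Others named, in the stretch of - numbers, were chosen after their values were seen. Alternatives were 75th percentile scaling, quantile normalization within each series, the authors' values, normexp correction (offset 50) on median pixel signals, other detection rules and other references.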

Additional observations from a re-analysis of the deposited data

How the results depend on the processing

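No paired analysis was possible because no condition holds more than a single array. Of 97 alternative values of the counts and of the neighbour correlation, 60 stayed within 1.5 times or within the spread of the main value and 37 did not. For the neighbour correlation that spread was taken from the r of single pairs. It was so wide that the fall from 0.33 to 0.11 without the Day 4 array is among the 60. The SLRs of the 69 named members were recomputed 2117 times in all, under other scalings or without the Day 4 array. Of these recomputed SLRs, 1722 were counted as the same and 395 as moved. None changed sign where the main SLR was past 1, and changes of sign of smaller SLRs were not counted. Many named members were chosen for large SLRs in these values, which favours a kept sign. With Day 6 in place of 0 hr OGD as the reference, 14 of the named members' 94 OGD SLRs past 1 (in 10 of 40 members) changed sign, and with Day 8 1 did. Counts below are of members past an SLR of 1 in the order Day 4, Day 6, Day 8, then 2, 4, 6 and 8 hr OGD.

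Detection on every array of a series left 1100 members in maturation and 936 in OGD, with 370, 106, 101, 240, 192, 98 and 271 past the threshold. normexp, whose offset adds a constant to each signal and so shrinks differences of dim probes, gave 139, 56, 61, 83, 79, 53 and 108, and 58 for Day 6 and 5 for Day 8 against 0 hr OGD. The authors' values, which hold fewer members, gave 538, 273 and 282 over the days, and the main values on those members, an alternative chosen after seeing the data, gave 554, 281 and 287. Detection above the negative spots gave 648 on Day 4 and 13 for Day 8 against 0 hr OGD. With no filter 621 were past it at 6 hr OGD, and 628 and 374 for Day 6 and Day 8 against 0 hr OGD. Day 8 against Day 6, within a scan, gave 343. With Day 6 as reference the counts were 280, 295, 290 and 398 after 2, 4, 6 and 8 hr. With Day 8 they were 368, 380, 329 and 392 in the same order. A second such alternative left out the Day 4 array, with 1588 members detected in maturation and 385 past the threshold on Day 8. The cause of these moves was not tested beyond the smaller sets named.

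The share of higher among the calls moved by over 10 points with some scalings. On Day 4 it was 51.0% in the main setting and 64.8% with 75th percentile scaling, and on Day 8 it was 39.5% in the main setting and 28.1% with 75th percentile scaling. With normexp it went from 42.2% to 30.4% on Day 6, from 55.3% to 42.2% at 2 hr and from 55.2% to 72.2% at 8 hr OGD. At 2 hr OGD the higher share of + members lay between 57.1% and 71.0% and that of - members between 31.2% and 51.0% over the scalings, with + above - in each. At 8 hr normexp brought them to 73.5% and 71.2%. The median of all transcript probes moved by over 0.1 in the authors' values on Day 4, to -0.35. The authors' values gave 25.1% on Day 4 over 1569 members, where the main values gave 24.9%. Signals near background limit the SLRs of dim members.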

Other observations

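The Day 4 array held signals that no other array held. It was more than 1 above each of the other 8 arrays for 316 members, or 13.6% of the members detected on it, where 13.4% of transcript probes did the same, and the other arrays had 6 to 30 such members each. By more than 3 this held for 16 members. The members with the widest margins are named here after their values were seen. MM9LINCRNAEXON10844- was at 9.25 on Day 4 and at most 2.93 elsewhere. MM9LINCRNAEXON11397+ was at 7.19 and at most 2.02, and MM9LINCRNAEXON10919+ at 7.46 and at most 2.41. MM9LINCRNAEXON11857+ was at 12.76 on Day 4 and between 6.05 and 8.42 on the other arrays, each of which detected it. Of the 316 members, 175 were above the 95th percentile of the negative spots on Day 4. Whether they reflect the culture of that day or the array was not tested.

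Members detected on all 9 arrays varied about as much as other probes. The range of log2 signal over the 9 arrays had a median of 1.46 over 912 members and 1.38 over 17431 transcript probes. A range under 1 was found for 142 members (15.6%), against 20.6% of transcript probes. Without the Day 4 array these counts moved to 332 members (36.4%) and 40.6% of transcript probes.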
